A study of Mus musculus with 8 samples.

Results

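Sim1, Otp, Nr5a1, Bsx, Fezf1, Barhl1 and Prox1 encode transcription factors that are expressed in developing neurons of different hypothalamic nuclei. They were chosen by name, as the non-control probes annotated with these symbols on an Agilent mouse expression array, and the rule used no measured value, although results of these data were known when they were named. They were 7 of the 34652 genes on the array and had 8 of its 55419 usable probes, because Barhl1 had 2 probes and each other gene had 1. The question addressed was which hypothalamic nuclei are represented in cultured mouse embryonic stem (ES) cells that had been directed towards a hypothalamic or eye-field fate.

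Total RNA was measured on 8 single-colour arrays, 1 for each group. Of these, 4 came from K/l-EB5, a male ES cell line of the 129/Ola strain whose green fluorescent protein (GFP) reports Rax, a homeobox gene that marks eye-field and hypothalamic progenitors. All 4 received the Wnt inhibitor IWR-1-endo (5 µM) from day 3 in vitro, and 12 h later activin A (10 ng/ml), which signals through Activin/Nodal receptors, or SAG (100 nM), an agonist of Hedgehog signalling. On day 10 they were sorted into cells with and without RAX::GFP, named RAX-positive and RAX-negative in what follows. The control labelled Wi was E14Tg2A, also a male 129/Ola ES cell line, which received only the Wnt inhibitor and for which no sort is named. The embryonic tissues were cortex, diencephalon with hypothalamus (written diencephalon/hypothalamus below) and eye, taken at E12.5 from 3 Sv129s6 embryos of mixed sex. Each RNA was a pool of 3 sets. With 1 array for each group there is no replicate, and no p-value is given. In such bulk RNA, fewer cells of a type and less RNA per cell cannot be told apart.

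The hypothalamus forms from the ventral diencephalon, where Sonic hedgehog and Rax mark the early territory and Nkx2-1 its tuberal part. As progenitors leave the cell cycle, neurons of each nucleus switch on their own transcription factors. Sim1, a basic helix-loop-helix-PAS factor, and Otp, a homeodomain factor, are needed for neuroendocrine neurons of the paraventricular and supraoptic nuclei. Nr5a1, the nuclear receptor SF-1, and the zinc finger factor Fezf1 mark the ventromedial nucleus. The homeodomain factor Bsx acts in the arcuate and dorsomedial nuclei, and the homeodomain factor Barhl1 is expressed in the mammillary region. Prox1, a divergent homeodomain factor, is found in diencephalic neurons and also in lens, retina and lymphatic endothelium. Otp is also expressed in arcuate and mammillary neurons, and Nr5a1 in pituitary, adrenal and gonad, so none of the 7 genes stands for a nucleus by itself.

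The probes of the homeobox genes Otp and Bsx are shown because several calls of these genes below ended with another background correction. Each is 60 bases long, 5′ to 3′, as deposited with the array annotation. Otp's probe lies at mm9 chr13:95647384-95647443 on the plus strand and Bsx's at mm9 chr9:40685703-40685762 on the plus strand.
Otp: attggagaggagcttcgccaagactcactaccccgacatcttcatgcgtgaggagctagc
Bsx: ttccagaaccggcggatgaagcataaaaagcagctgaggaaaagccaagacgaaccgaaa
Their GC content was 55% and 48.3%. The other probes lie, on mm9, at chr10:50708865-50708924 for Sim1 (plus strand), chr2:38548180-38548239 for Nr5a1 (minus), chr6:23195360-23195419 for Fezf1 (minus) and chr1:191945785-191945844 for Prox1 (minus). Both Barhl1 probes lie on the minus strand, at chr2:28763200-28763239, where only 40 of the 60 bases of the first probe are placed, and at chr2:28763253-28763312. The first probe had the higher mean log2 signal over the 8 arrays and stands for the gene below, although the second read higher on the diencephalon/hypothalamus array. Whether the first probe also reads another transcript was not tested.

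The 250 bases upstream of the annotated start, from RefSeq on GRCm38.p6, are shown for 4 members that differed in their pattern, Sim1 and Otp for the paraventricular nucleus, Bsx for the arcuate and Fezf1 for the ventromedial. Capitals mark CCAAT on either strand (ATTGG on the strand shown). The windows are chr10:50895401-50895650 for Sim1 (plus strand), chr13:94875386-94875635 for Otp (plus), chr9:40873877-40874126 for Bsx (plus) and chr6:23248265-23248514 for Fezf1 (minus).
Sim1: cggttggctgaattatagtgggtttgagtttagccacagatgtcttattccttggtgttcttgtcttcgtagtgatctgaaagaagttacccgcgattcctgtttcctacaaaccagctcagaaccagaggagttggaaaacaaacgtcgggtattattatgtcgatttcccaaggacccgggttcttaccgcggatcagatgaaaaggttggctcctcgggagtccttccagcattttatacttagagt
Otp: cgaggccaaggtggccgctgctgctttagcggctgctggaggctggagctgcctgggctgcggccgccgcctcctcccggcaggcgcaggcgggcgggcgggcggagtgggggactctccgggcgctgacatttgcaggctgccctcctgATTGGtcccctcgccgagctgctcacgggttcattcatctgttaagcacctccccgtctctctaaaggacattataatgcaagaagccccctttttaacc
Bsx: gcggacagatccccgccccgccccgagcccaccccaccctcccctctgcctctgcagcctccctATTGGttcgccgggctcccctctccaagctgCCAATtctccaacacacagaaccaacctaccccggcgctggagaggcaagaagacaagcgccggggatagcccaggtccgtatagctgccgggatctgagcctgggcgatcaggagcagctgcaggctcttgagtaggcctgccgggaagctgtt
Fezf1: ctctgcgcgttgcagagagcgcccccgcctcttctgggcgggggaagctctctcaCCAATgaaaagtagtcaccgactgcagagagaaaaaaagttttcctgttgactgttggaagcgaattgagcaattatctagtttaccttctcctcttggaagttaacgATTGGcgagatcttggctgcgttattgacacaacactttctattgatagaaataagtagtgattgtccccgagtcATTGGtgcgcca
Counting back from -1 at the base before the start, CCAAT first matched at -195, -87 and -12 in Fezf1, at -186 and -155 in Bsx and at -100 in Otp, and had no match in Sim1. CCAAT was present in 33.9% of 32851 upstream windows of this length. The homeodomain core TAATTA (4.84% of windows), the NR5A monomer site AAGGTCA (4.08%), the Gli consensus TGGGTGGTC (0.225%) and the Sim1-Arnt core ACGTG (16.6%) had no match in the windows of the 6 members that the table holds. The NKX2-1 core CAAGTG (11.6%) matched once, in a window of Prox1. Each motif was searched on both strands, and no motif searched contains another. A match is a description of these letters only, and the absence of one says nothing about the factor.

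Levels are log2 of the processed signal minus the log2 of the 75th percentile of the same array, so 0 is that percentile and a step of 1 is a 2-fold step. They are compared between arrays for 1 gene and not between genes, whose probes differ. A gene was called higher or lower between a pair of arrays where the brighter reading was well above background and their levels differed by 1 or more in log2. This size rule is no statistical test. A dimmer reading near background was raised, where it lay lower, to that array's lowest well-above-background signal, and the fold is then given as "at least". The reading error of a level comes from the Agilent error model. It covers the reading of a spot and not the spread between cultures. Its size for a difference between bright readings was about 0.20, and neighbours in the order of levels were taken as distinguishable where they differed by more than the 95% range of that error.

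The arrays differed in depth. Between 59.5% and 79.3% of spots were well above background, and 0 were saturated. Of all 34652 genes, 65.3% to 82.6% were well above background, and the highest share belonged to RAX-positive cells after activin. There, 44.2% of 1359 olfactory and vomeronasal receptor genes were also well above background, against 11.8% to 24.8% on the others. Slide 1 held 7 arrays and the Wi control was alone on slide 2, so cell line, sort and slide cannot be told apart in comparisons with it. RAX-positive cells were in column 1 and RAX-negative cells in column 2 of the slide, and activin and SAG arrays at positions 1 and 2, so gate and column, and factor and position, cannot be told apart.

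All 7 genes were well above background in diencephalon/hypothalamus, in RAX-negative cells after SAG and in RAX-positive cells after activin. The count was 6 in the Wi control, 5 in RAX-positive cells after SAG, 5 in RAX-negative cells after activin, 5 in cortex and 3 in eye. The 3 in eye were Nr5a1, Barhl1 and Prox1. Among the 3 embryonic tissues, diencephalon/hypothalamus had the highest level of each gene. There, 7 of 7 genes were higher than in cortex, where 12.9% of all detected genes were higher and 9.03% lower, and 6 of 7 were higher than in eye (8.4% of all detected genes higher and 12.1% lower). Prox1 was the exception, at -1.23 in diencephalon/hypothalamus and -1.71 in eye. Under normexp Bsx was 0.95 above cortex and 0.82 above eye and no longer called.

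**Figure D1:**
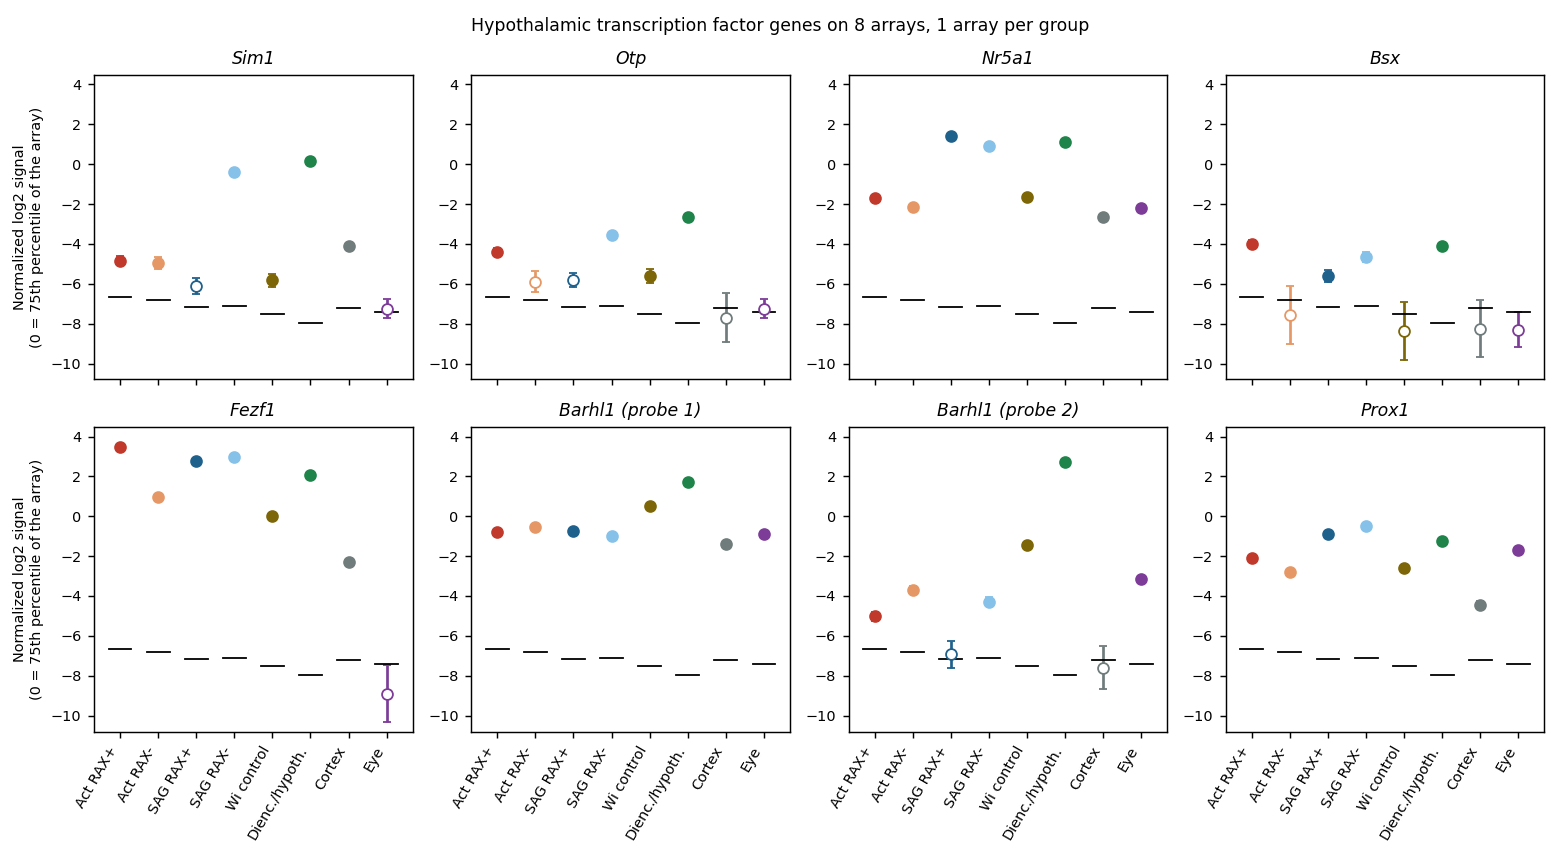
Normalized log2 level (vertical axis, 0 is the 75th percentile of the array) of each of the 7 genes on the 8 arrays (horizontal axis), for both probes of Barhl1. Points are single readings with bars of 1 reading error, open symbols are readings not well above background, and short horizontal lines mark the lowest signal that was well above background on each array. Sim1 is high on 2 arrays, diencephalon/hypothalamus at 0.16 and RAX-negative cells after SAG at -0.39, and is at -4.10 or below on the other 6.

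Sim1 separated the arrays most clearly among the paraventricular pair. Its level was 0.16 in diencephalon/hypothalamus, -0.39 in RAX-negative cells after SAG, -4.10 in cortex, -4.84 and -4.95 in RAX-positive and RAX-negative cells after activin, -5.81 in the Wi control, -6.10 in RAX-positive cells after SAG and -7.25 in eye. The last pair were not well above background. Only 2 arrays were high, and the other 6 were at least 3.72 below them in log2. Diencephalon/hypothalamus and RAX-negative cells after SAG differed by 0.54, a 1.46-fold difference that was beyond the reading error and under the size rule. The activin populations differed from each other by 0.11, within the reading error.

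Otp, which like Sim1 is needed by neuroendocrine neurons, was highest on the same pair of arrays. Its level was -2.67 in diencephalon/hypothalamus, -3.56 in RAX-negative cells after SAG, -4.40 in RAX-positive cells after activin and -5.60 in the Wi control, all well above background. It was -5.80 in RAX-positive cells after SAG, -5.88 in RAX-negative cells after activin, -7.24 in eye and -7.69 in cortex, none of them well above background. Among the 4 highest arrays each neighbour was distinguishable from the next, and from the Wi control down none was. Otp in RAX-negative cells after SAG was 1.86-fold below diencephalon/hypothalamus, under the size rule.

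Nr5a1, which is required to form the ventromedial nucleus, divided the arrays into 2 sets. Its level was 1.401 in RAX-positive cells after SAG, 1.09 in diencephalon/hypothalamus and 0.89 in the RAX-negative cells of the SAG cultures. It was -1.66 in the Wi control, -1.71 and -2.16 in RAX-positive and RAX-negative cells after activin, -2.19 in eye and -2.67 in cortex. The sets were split at the widest step between neighbouring levels, which was 2.55, so their lack of overlap follows from the split. Each neighbour within the high set lay within the reading error. Nr5a1 was well above background on all 8 arrays, the low set included.

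Fezf1, a ventromedial factor that is also expressed in early forebrain progenitors and olfactory neurons, did not share that division. Its level was 3.49 in RAX-positive cells after activin, 2.99 and 2.79 in RAX-negative and RAX-positive cells after SAG, 2.07 in diencephalon/hypothalamus, 0.94 in RAX-negative cells after activin, -0.01 in the Wi control, -2.30 in cortex and -8.90 in eye. In 3 sorted populations it was above the embryonic tissue, and eye was the only array not well above background. The SAG populations differed by 0.20, within the reading error.

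Bsx, the arcuate and dorsomedial factor, was well above background on 4 arrays and at low signal on each. It was -3.99 in RAX-positive cells after activin, -4.11 in diencephalon/hypothalamus, -4.65 in RAX-negative and -5.61 in RAX-positive cells after SAG. It was -7.55 in RAX-negative cells after activin, -8.24 in cortex, -8.31 in eye and -8.35 in the Wi control, where only a bound is given. The 2 highest arrays were within the reading error of each other.

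Barhl1, the mammillary factor, was highest in diencephalon/hypothalamus on both probes. The first probe read 1.72 there, 0.52 in the Wi control, -0.52 and -0.81 in RAX-negative and RAX-positive cells after activin, -0.75 in RAX-positive cells after SAG, -1.003 in their RAX-negative counterpart, -0.88 in eye and -1.39 in cortex. The second probe read 2.74 in diencephalon/hypothalamus, -1.42 in the Wi control, -3.17 in eye, -3.69 and -5.03 in RAX-negative and RAX-positive cells after activin, -4.28 and -6.92 in RAX-negative and RAX-positive cells after SAG and -7.60 in cortex. Cortex and RAX-positive cells after SAG were not well above background on it. The probes gave the same highest and second highest arrays but not the same size, spanning 3.11 and 10.35 in log2, and they disagreed on the order of the sorted populations. With the first probe the neighbours from RAX-negative cells after activin down to cortex were within the reading error of each other.

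Prox1 was well above background on all arrays. Its level was -0.51 and -0.89 in RAX-negative and RAX-positive cells after SAG, -1.23 in diencephalon/hypothalamus, -1.71 in eye, -2.10 in RAX-positive cells after activin, -2.58 in the Wi control, -2.80 in RAX-negative cells after activin and -4.43 in cortex. Both SAG populations were the highest, cortex was the lowest, and neighbours among the SAG populations and diencephalon/hypothalamus were within the reading error.

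RAX-negative cells after SAG came closest to embryonic diencephalon/hypothalamus. Of the 7 genes, 6 differed by less than the size rule, between -0.89 for Otp and 0.91 for Fezf1, and only Barhl1 was called, 6.62-fold lower on the first probe and 130-fold lower on the second. The members' 1 lower call stood against 9.13% of all detected genes lower, and 0 higher calls against 13.5% higher. Their median difference was -0.54, against 0.13 for all detected genes. The paraventricular, ventromedial and arcuate factors were thus within 2-fold of the tissue in these cells, and the mammillary one below it. Under median scaling the Otp difference was -1.12, which adds a call.

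RAX-positive cells after SAG had the ventromedial pair without the paraventricular pair. Nr5a1 (0.31), Fezf1 (0.72) and Prox1 (0.34) differed from the tissue by less than the size rule. Sim1 was at least 76.3-fold lower, Otp at least 8.76-fold, Barhl1 5.57-fold on its first probe and Bsx 2.83-fold. The second Barhl1 probe read 2.74 in the tissue and -6.92, not well above background, in these cells. Of the 7 genes, 4 were lower, where 12.9% of all detected genes were, and none was higher (18.8%). Under normexp the differences of Otp and Bsx were -0.81 and 0.081, which ended both calls. The members' median was -1.50, against 0.24 for all detected genes.

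After activin, RAX-positive cells had 1 gene higher than the tissue and 4 lower. Fezf1 was 2.68-fold higher, Sim1 32.0-fold, Nr5a1 7.0-fold, Barhl1 5.80-fold and Otp 3.31-fold lower, and Bsx (0.12) and Prox1 (-0.87) were not called. Over all detected genes 29.3% were higher and 10.5% lower, with a median of 0.52 against -1.73 for the members. RAX-negative cells after activin had all 7 genes lower, from 2.19-fold for Fezf1 to 34.5-fold for Sim1, where 17.6% of all detected genes were lower and 20.0% higher. The Wi control had all 7 lower as well, from 2.30-fold for Barhl1 to 62.7-fold for Sim1, where 16.3% of all detected genes were lower and 22.0% higher. Under normexp the Wi control kept 4 of these calls, with Otp at -0.90, Bsx at -0.28 and Prox1 at -0.94, and RAX-positive cells after activin had Otp at -0.82. These comparisons share the diencephalon/hypothalamus array and are not independent of each other. The Barhl1 folds and the ranges of folds given for them use its first probe. The second Barhl1 probe read 2.74 in the tissue, -5.03 and -3.69 in RAX-positive and RAX-negative cells after activin and -1.42 in the Wi control.

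**Figure D2:**
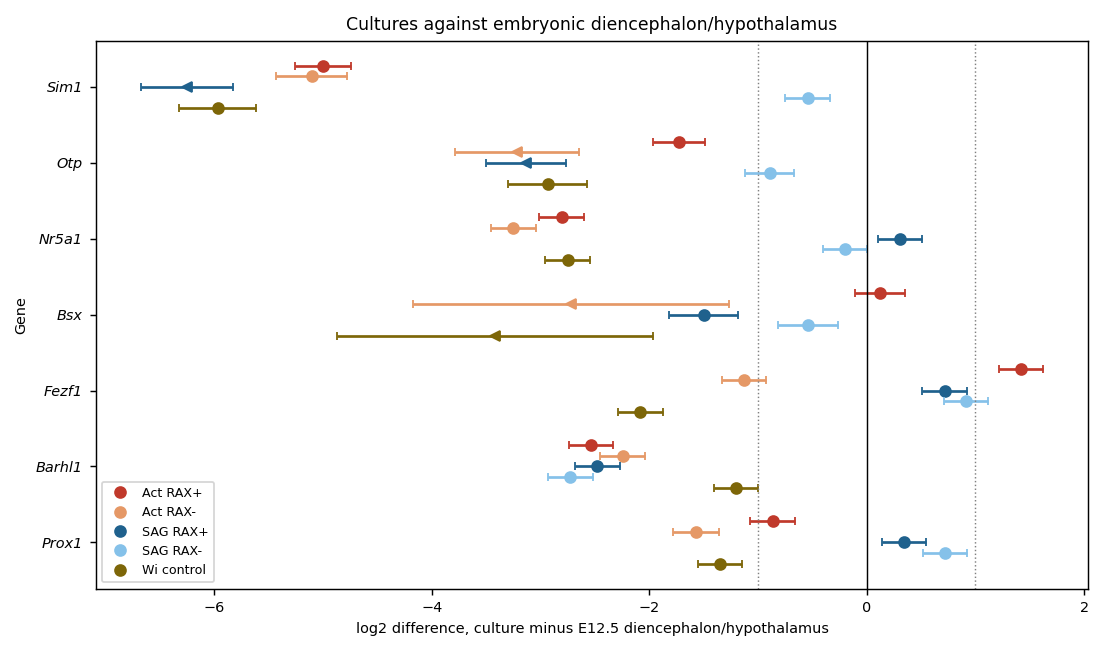
Log2 difference (axis of values) of each gene between a cultured population and diencephalon/hypothalamus at E12.5, for the 4 sorted populations and the Wi control, with bars of 1 reading error, triangles for bounds where the culture was near background, and dotted lines at the size rule of 1 in log2. RAX-negative cells after SAG lie within the lines for 6 of 7 genes, and the Wi control lies below the lower line for all 7.

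The RAX gate split the paraventricular genes after SAG. Sim1 was at least 52.3-fold lower in RAX-positive than in RAX-negative cells, from -0.39 to -6.10, and Otp at least 4.72-fold lower, from -3.56 to -5.80. No gene was higher. Over all detected genes 10.6% were lower and 7.17% higher. Nr5a1 (0.51), Fezf1 (-0.20), Prox1 (-0.38), Barhl1 (0.25) and Bsx (-0.96) were not called, and the second Barhl1 probe was at least 6.23-fold lower. Under normexp the Otp difference was -0.85, so the size rule was missed, while the Sim1 call held.

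After activin the gate had the opposite sense for Otp. Otp was at least 2.80-fold higher in RAX-positive cells, Bsx at least 7.16-fold and Fezf1 5.85-fold, and no gene was lower, with 23.1% of all detected genes higher and 6.24% lower. Sim1 (0.11), Nr5a1 (0.44), Prox1 (0.71) and Barhl1 (-0.29) were not called, while the second Barhl1 probe was 2.52-fold lower. In the same comparison 67.6% of the detected olfactory and vomeronasal receptor genes were higher and 3.43% lower. The part of these higher dim readings in the calls of Otp and Bsx was not tested. With another background correction (normexp) the differences of Otp and Bsx were 0.43 and 0.66, so both calls ended, and under quantile normalization Sim1 was -1.02, which is a lower call.

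Between the factors, RAX-negative cells had 6 of 7 genes lower after activin than after SAG. Sim1 was 23.6-fold lower, Nr5a1 8.28-fold, Otp at least 5.00-fold, Prox1 4.89-fold, Bsx at least 4.52-fold and Fezf1 4.12-fold, and Barhl1 (0.48) was not called. Over all detected genes 19.5% were lower and 14.2% higher. In RAX-positive cells the genes divided. Nr5a1 was 8.66-fold and Prox1 2.31-fold lower after activin (6.54% of all detected genes lower), while Bsx was 3.08-fold, Otp at least 2.65-fold and Sim1 at least 2.38-fold higher (18.7% higher), with 51.4% of the detected receptor genes also higher. Under normexp the Sim1 difference was -0.084, the Otp difference -0.0066 and the Bsx difference 0.15, so these 3 calls ended. The first Barhl1 probe was not called in RAX-positive cells (-0.06). The second read -5.03 after activin and -6.92, not well above background, after SAG, which are 1.90 apart.

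The gate and factor comparisons use the same 4 arrays. Nr5a1 was called between factors in both gates and between gates in neither, with gate differences of 0.44 after activin and 0.51 after SAG. Sim1, Otp, Bsx and Fezf1 had gate differences that were further apart, by 5.82, 3.73, 3.80 and 2.75 in log2, and with 1 array per group these could not be tested.

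**Figure D3:**
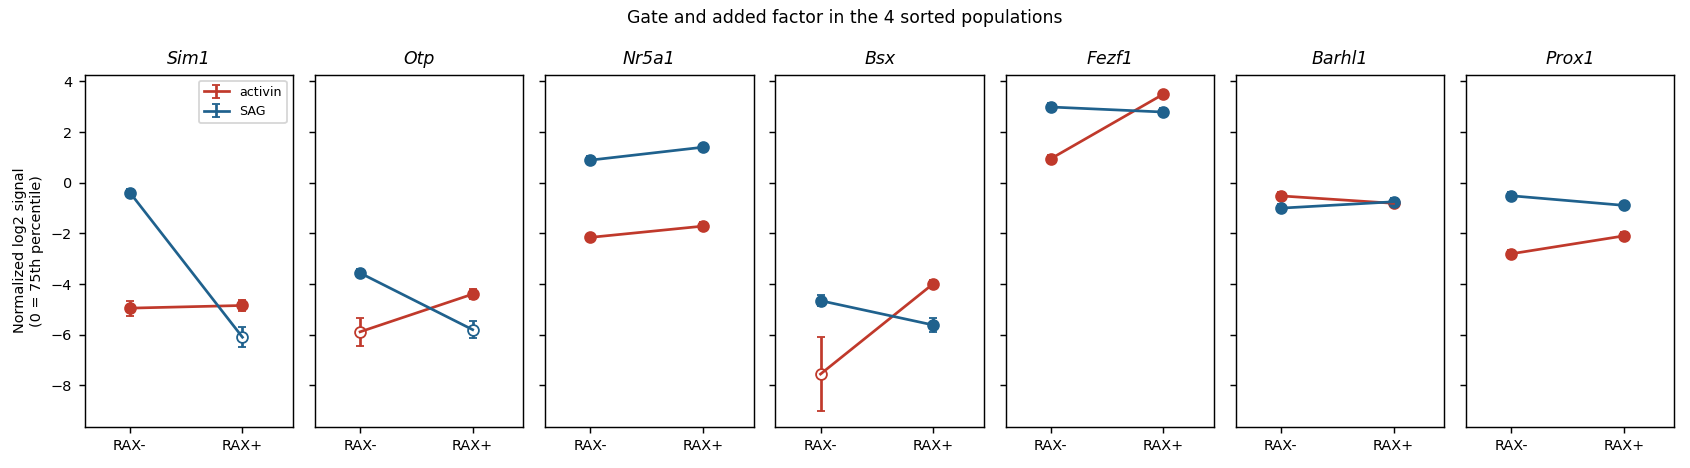
Normalized log2 level of each gene (vertical axis) in the RAX-negative and RAX-positive cells of activin and SAG cultures, with bars of 1 reading error and open symbols for readings not well above background. The SAG line of Sim1 goes from -0.39 to -6.10 while its activin line stays near -4.9, and for Nr5a1 the SAG and activin lines run level about 3 apart.

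Against the Wi control, RAX-negative cells after SAG had 6 genes higher and Barhl1 2.88-fold lower. Sim1 was 43.0-fold higher, Fezf1 7.98-fold, Bsx at least 7.36-fold, Nr5a1 5.85-fold, Prox1 4.20-fold and Otp 4.12-fold, where 17.5% of all detected genes were higher and 17.0% lower. RAX-positive cells after SAG had Nr5a1 8.33-fold, Fezf1 6.95-fold, Bsx at least 3.79-fold and Prox1 3.23-fold higher and Barhl1 2.42-fold lower (20.9% higher and 19.3% lower over all). RAX-positive cells after activin had Bsx at least 11.7-fold, Fezf1 11.3-fold and Otp 2.31-fold higher and Barhl1 2.52-fold lower (30.0% and 13.9%), with 67.7% of the detected receptor genes higher. RAX-negative cells after activin had 1 call, Barhl1 2.06-fold lower, where 21.0% of all detected genes were lower and 18.9% higher. Under normexp the calls of Bsx ended in all 3 comparisons that had one (0.36 to 0.93), as did that of Otp in RAX-negative cells after SAG (0.94) and in RAX-positive cells after activin (0.09). Barhl1 was lower in all 4 sorted populations than in this control, whose array is shared by the 4 comparisons, though in RAX-negative cells after activin it was -0.87 under normexp and no longer called. These Barhl1 values are of the first probe. The second read -1.42 in the Wi control, -3.69 and -5.03 in RAX-negative and RAX-positive cells after activin and -4.28 and -6.92 in those after SAG. The last of these was not well above background.

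Other genes of the hypothalamus, taken from lists of progenitor genes, of factors for each nucleus and of neuropeptides, were read in the same way. In RAX-negative cells after SAG against diencephalon/hypothalamus, none of 3 paraventricular factors (Sim2, Arnt2 and Pou3f2) and none of 3 ventromedial factors (Nr0b1, Fezf2 and Sox14) was called in either direction. These ventromedial factors were not lower in the Wi control either, at 0.01, 2.85 and -2.34, against -0.98, 1.06 and -2.49 in the tissue. The paraventricular factors stood at -0.89, 0.38 and 1.99 in the Wi control, against -2.08, 1.88 and 2.79 in the tissue. The median level of these paraventricular factors was 0.36 below the tissue in RAX-negative cells after SAG and 0.64 below it in cortex, so it separates these arrays little. Of 5 arcuate and tuberal factors Isl1 alone was called in RAX-negative cells after SAG, 2.15-fold lower. Of 7 mammillary factors 3 were lower, among them Barhl2 by at least 3.31-fold and Lhx1 by 2.80-fold, and none was higher. The list median, here and below the median of the single genes' differences, was 0.17. The median level of the same list, taken on each array first, differed from the tissue by -1.44. These medians differ in sign, so neither is read as a shift of the whole list. Of 11 progenitor genes 4 were lower, among them Six6 (7.38-fold), Fgf10 (4.72-fold) and Tbx3 (4.56-fold), and Nkx2-1 was 2.31-fold higher.

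Neuropeptide genes are products of more mature hypothalamic neurons. Of 13 detected in the same pair, 6 were lower and 2 higher. Pmch, of lateral hypothalamic neurons, was 16.3-fold lower, Pomc, of arcuate neurons and pituitary, 9.39-fold lower, and Trh 4.88-fold lower, while Npy was 4.91-fold higher. The other gene called higher was Oxt, which encodes oxytocin of paraventricular and supraoptic neurons, at -2.20 against -4.47 in the tissue (4.80-fold); it was named after its value was seen. The pituitary genes Pitx1 and Lhx3 stood at 2.88 and 2.16 on the diencephalon/hypothalamus array and at no more than 0.86 and -2.31 on each other array. The part of pituitary tissue in the Pomc and Nr5a1 levels of that array was not tested.

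In RAX-positive cells after SAG, mammillary and neuropeptide genes were low along with Sim1 and Otp. There, 5 of 6 detected mammillary factors were lower than in RAX-negative cells, Foxa1 by 26.5-fold, Lhx1 by 4.77-fold and Foxb1 by 4.16-fold among them, with a list median of -2.16. Likewise, 8 of 13 neuropeptide genes were lower, including Trh (25.7-fold), Npy (25.3-fold), Sst (22.8-fold) and Cartpt (21.5-fold), and 1 of 3 paraventricular factors, Pou3f2 (4.25-fold). Of 11 progenitor genes 5 were higher, Tbx3 by 13.2-fold, Fgf10 by 9.15-fold and Six3 by 5.70-fold among them, and 1, Nkx2-2, was 2.08-fold lower. The 5 include Rax (5.23-fold), on which the cells were sorted and which is no finding. Among arcuate factors Neurog3, a proneural gene of progenitors, was 4.14-fold higher and Hmx2 2.15-fold lower. None of 3 ventromedial factors was called. The median of all detected genes was 0.06.

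After activin, the arcuate and tuberal factors were low in both gates. All 5 of 5 were lower than after SAG in RAX-negative cells, Neurog3 by 82.5-fold, Hmx3 by 71.5-fold and Hmx2 by at least 50.6-fold, with a list median of -5.66, and 5 of 5 in RAX-positive cells, Hmx3 by 24.6-fold and Neurog3 by 20.9-fold, with a median of -2.71. Bsx, the member of that nucleus, was in contrast higher in the RAX-positive pair, at the low signal given above. The ventral genes Nkx2-1, Nkx2-4 and Shh were lower after activin in both gates, by 30.6-fold, 37.0-fold and 7.04-fold in RAX-negative cells and by 10.8-fold, 9.61-fold and 23.5-fold in RAX-positive cells. Trh, a neuropeptide of paraventricular and other neurons, went the other way, 177-fold and 63.7-fold higher after activin. It was also high in the Wi control, at 4.53, against 6.79 in RAX-negative cells after activin and 1.61 in diencephalon/hypothalamus. Of the other neuropeptide genes in RAX-negative cells, Gal was higher (12.0-fold) and Oxt, Sst, Ghrh, Agrp, Npy, Cartpt and Pmch were lower. In RAX-positive cells Gal, Cartpt, Kiss1, Hcrt and Pmch were higher and Ghrh was lower.

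Pan-neuronal genes also differed between the populations. The summed level of 10 pan-neuronal genes, all well above background on all 8 arrays, was 8.02 in log2 in diencephalon/hypothalamus, 7.96 in the Wi control, 7.72 in RAX-negative and 6.64 in RAX-positive cells after SAG, 6.06 and 5.16 in RAX-negative and RAX-positive cells after activin, 6.75 in cortex and 4.89 in eye. The sum weights bright genes, and after activin the median level had the other order, 1.05 in RAX-negative and 1.52 in RAX-positive cells. Between these gates Stmn2 was 5.41-fold lower in RAX-positive cells (3.05 against 5.48) and Map2 2.28-fold higher. No other gene of the list was called there. In RAX-negative cells after SAG none of the 10 genes was called against the tissue. In RAX-positive cells after SAG 6 were lower than in the tissue and none higher, and 9 of 10 were lower after activin than after SAG in each gate. The part of neuronal content in the differences of the 7 genes was not tested. In the Wi control 2 pan-neuronal genes were higher than in the tissue and none was lower.

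Genes of other cell types were read as summed log2 levels of lists. The 6 pluripotency genes summed to 7.31 in the Wi control, 5.77 in RAX-negative cells after activin, 2.33 in RAX-negative cells after SAG and 0.22 and 0.30 in the RAX-positive cells after activin and SAG, against -0.01 in diencephalon/hypothalamus. In RAX-negative cells after SAG 5 of 6 were higher than in the tissue. The part of residual pluripotent cells in the levels of the members was not tested. Lens genes summed to 8.89 and retinal genes to 5.91 in eye and to no more than 0.02 and 2.39 on the other arrays, and cortical genes to 7.24 in cortex and 6.71 in the Wi control. Thalamic and prethalamic genes summed to 5.06 in RAX-negative cells after SAG and 0.95 to 4.67 elsewhere. Hindbrain genes summed to between -3.55 and 1.69, and the 4 Hox genes were all well above background in the Wi control alone. Endothelial genes summed to between 1.55 and 3.41, with Lyve1 well above background in the 3 tissues only. Adrenal, gonadal and pituitary genes summed to 3.71 in the Wi control and 3.70 in diencephalon/hypothalamus. The genes behind these sums differed, with Cyp17a1 at 3.67, Pitx1 at -3.66 and Lhx3 at -3.38 in the Wi control and at 0.06, 2.88 and 2.16 in the tissue. Endoderm genes summed to 4.16 and 3.44 in the RAX-negative cells after activin and SAG, with Foxa2, which is also a floor plate gene, at 3.99 and 3.43. Other genes of this list differed between these populations. Sox17 and Hhex were at 0.02 and -0.12 after activin and at -7.37 and -5.94, not well above background, after SAG.

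**Figure D4:**
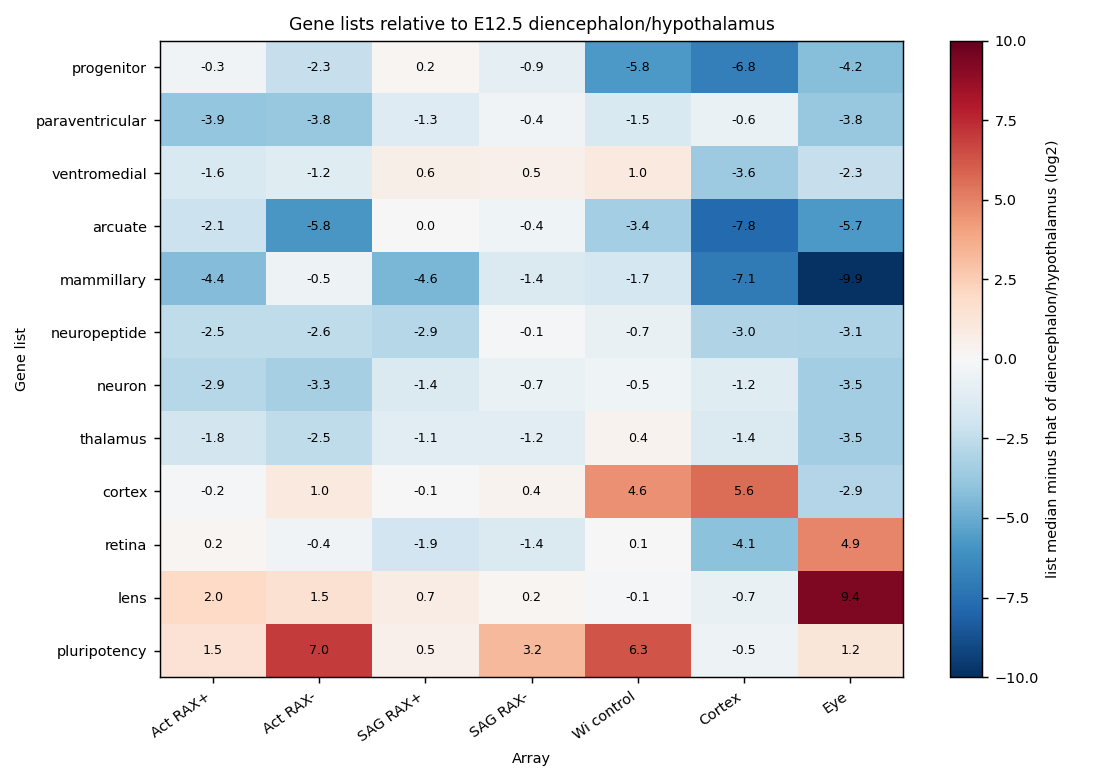
Median normalized log2 level of the genes of each list on every array minus that in diencephalon/hypothalamus, shown as a colour scale with the lists as rows and the arrays as columns. The progenitor list is 5.78 below the tissue in the Wi control and 0.87 below it in RAX-negative cells after SAG. The values shown are differences between median levels and not the medians of single-gene differences given in the text.

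The genes whose pattern over the 8 arrays was most like that of a member were found by Pearson's r of floored log2 levels, among 13102 genes with a range of at least 2 whose signal was well above background on 2 arrays or more. The 8 arrays are few points for so many candidates, and they share slide and depth, so r is a description. Sim1 was most like 7120432I05Rik (0.988), Jhy (0.949) and Nova1 (0.925). Otp was most like Nkx2-2 (0.967), a ventral homeobox gene, Gm10432 (0.966) and 4921506M07Rik (0.960). Nr5a1 was most like Lrrc36 (0.983), 4933403O08Rik (0.956) and Hmx2 (0.949), a homeobox gene of the arcuate list. Bsx was most like Col6a4 (0.986), Igbp1b (0.984) and an unnamed transcript (0.979), all at low signal. Fezf1 was most like Ankrd6 (0.984), Lhx5 (0.978), a LIM homeobox gene of the mammillary list, and Cdh22 (0.971). Barhl1 was most like 1700086P04Rik (0.975), Omg (0.969) and Nms (0.965), each of which was well above background in diencephalon/hypothalamus and the Wi control. Prox1 was most like Ppp4r1l-ps (0.975), an unnamed transcript (0.974) and Cibar2 (0.966). Among the members themselves r was highest for Otp with Bsx (0.860), Nr5a1 with Prox1 (0.820) and Sim1 with Otp (0.816), and lowest for Fezf1 with Barhl1 (0.226).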

How the data were processed

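Cy3-labelled RNA (50 ng) was hybridized to 1 array per group, per the labels' protocols. Agilent Feature Extraction 10.7.3.1 produced the scanner tables, per the file headers (the submitters' processing notes name 9.1 and limma), and these deposited tables give a background-subtracted, detrended intensity and an intensity error for each spot. The deposited value table holds log2 values normalized between arrays by the authors, used as an alternative only. Here outlier spots (136 to 307 for each array of 62976 spots) were removed, spots of a probe averaged and each array scaled to its 75th percentile. Each gene took the values of the probe whose mean was highest, and 27927 probes were named through RefSeq, the rest by the file. Bounds, calls and reading errors are as given in the report. The calling code was also run on simulated data, with noise of the reading error only and shifts in genes that were not dim. That run cannot show how calls fare for dim readings or with the spread between cultures. Named genes were all members, up to 4 called genes per hypothalamic list by size of difference, and the 3 genes most like each member. The other calls of the neuropeptide list between the factors were named after their values were seen. Members and lists were chosen with earlier results of these data known. Alternatives were median and quantile scaling, normexp (offset 50, limma 3.58.1 in R 4.3.3), the mean of probes, stricter filters and the value table.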

Additional observations from a re-analysis of the deposited data

Results flagged for a closer look

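The 4 differences given here stood out because calls in matched comparisons had opposite signs, and with 1 array per group none was tested. Otp was higher in RAX-positive than in RAX-negative cells after activin and lower after SAG, and these gate differences were 3.73 apart in log2. Read the other way, activin over SAG was higher in RAX-positive and lower in RAX-negative cells for Sim1 (5.82 apart), Otp (3.73 apart) and Bsx (3.80 apart). Each of them holds at least 1 reading that was not well above background, in RAX-positive cells after SAG for Sim1 and Otp and in RAX-negative cells after activin for Otp and Bsx. Under normexp none of the 4 keeps opposite calls, with the Otp gate differences at 0.43 after activin and -0.85 after SAG, and activin over SAG in RAX-positive cells at -0.084 for Sim1, -0.0066 for Otp and 0.15 for Bsx.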

How the results depend on the processing

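Of the counts of members under an alternative, 88 stayed within 1.5 times the value reported and 18 did not; of differences of single members, 436 moved by less than their reading error, 165 by more and 3 reversed. Under normexp the gate after activin gave 1 call, the gate after SAG 1, activin over SAG in RAX-positive cells 2, RAX-positive and RAX-negative cells after activin over the Wi control 2 and 0, RAX-positive cells after SAG over diencephalon/hypothalamus 2 and the Wi control over it 4. Its reversed differences were Sim1 (-0.084) and Otp (-0.0066) for activin over SAG in RAX-positive cells and Bsx (0.081) in RAX-positive cells after SAG over diencephalon/hypothalamus. Requiring both arrays well above background gave 1 and 0 calls for the gate after activin and SAG, 3 for activin over SAG in RAX-positive cells, 2 for RAX-positive cells after SAG over diencephalon/hypothalamus and 2 for that tissue over eye, because dim readings are then left out. Median scaling gave 2 calls for RAX-negative cells after activin over the Wi control, and median and quantile scaling each 2 for RAX-negative cells after SAG over diencephalon/hypothalamus. The authors' deposited table gave 2 for activin over SAG in RAX-positive cells and 0 for RAX-negative cells after activin over the Wi control. With the laxer detection call 6 members were detected in eye. Except where dim readings are left out, the cause was not tested. Signal over background limits the readings of Otp and Bsx in particular. No paired analysis was possible because each group had 1 array.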
